A study of Homo sapiens with 3 samples.

Results

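The genes described here are 10 components of cytokine signalling through the shared receptor gp130, Janus kinases (JAKs) and the transcription factor STAT3. They were 4 receptor subunits (IL6ST, IL6R, LIFR and OSMR), 2 kinases (JAK1 and JAK2), STAT3 itself and 3 suppressors of cytokine signalling (SOCS1, SOCS2 and SOCS3). The members were chosen by symbol as parts of the pathway, and all 10 were found among the 58381 genes of the deposited table. RNA was sequenced from T24, a human bladder urothelial carcinoma cell line, in 3 conditions with 1 library each. The control library (Ctrl) carries the treatment label Empty and no radiation. A second library (RT) was from control cells exposed to ionising radiation. The third (RT + shHDAC6) was from irradiated cells that carried a short hairpin RNA against HDAC6, a deacetylase of tubulin and other cytoplasmic proteins. The labels give 10 Gy from a caesium source as the dose, in a protocol text that stands on all 3 samples. The hairpin was delivered by lentivirus with puromycin selection, and the labels pair it with an empty pLKO.1 control vector, whereas the results text of the study calls the comparator parental cells. Irradiated cells were compared with Ctrl to see what followed radiation, and RT + shHDAC6 was compared with RT to see what differed with the hairpin.

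Cytokines of the interleukin-6 family bind a receptor chain of their own, such as IL6R, LIFR or OSMR, which pairs with gp130, the product of IL6ST. The paired chains bring together JAK1, JAK2 and TYK2, which phosphorylate the receptor and STAT3, and STAT3 then enters the nucleus and activates transcription. SOCS3 is one of the genes it activates, and its protein binds gp130 and the JAKs and shuts the signal off, so that SOCS3 mRNA is often used as a readout of pathway activity. None of the values here measures protein or phosphorylation.

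With 1 library per condition no difference has a replicate check, and no test was possible. Differences are therefore given as log2 ratios of counts scaled by the trimmed mean of M-values (TMM), with a 95% Clopper-Pearson interval that covers counting error only. A gene was called where it differed at least 1.5-fold (a log2 ratio beyond 0.58 in either direction) with an interval that excluded 0. Levels of different genes are compared only in transcripts-per-million (TPM), which corrects for gene length. TPM is not on the TMM scale, so differences of a gene between libraries are read from the log2 ratios. The libraries held 35424086 to 41811165 counts, of which the 10 genes together took 0.106% (Ctrl), 0.114% (RT) and 0.114% (RT + shHDAC6). A gene with 3 counts, the limit that a count of 0 allows, corresponded to 0.0662, 0.0894 and 0.0857 counts-per-million (CPM) on the TMM scale.

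The counts of HDAC6 were 3098 (Ctrl), 2383 (RT) and 2170 (RT + shHDAC6). After scaling, the library labelled as knockdown stood at 87.2% of RT (log2 ratio -0.20, 95% interval -0.28 to -0.11), so the target was lower in the labelled direction by less than the 1.5-fold rule. All 4 keratins of simple epithelium were present, with a summed level of 294, 401 and 323 scaled CPM in Ctrl, RT and RT + shHDAC6. Of 8 urothelial differentiation markers, GATA3, PPARG and FOXA1 were expressed in every library, whereas the uroplakins UPK1B, UPK2 and UPK3A and the keratin KRT20 had at most 3 counts in any. The sum of these 8 markers was 91.5, 71.0 and 41.6 scaled CPM. In RT + shHDAC6 compared with RT, 2 of the 3 expressed urothelial markers were called lower (median of the 3 -0.95) and FOXA1 was at 0.29. Of the 4 keratins, KRT7 was called lower (log2 ratio -2.75; 597 counts, against 3854 in RT and 3533 in Ctrl), and the other 3 were above 0 and not called (KRT8 0.35, KRT18 0.05 and KRT19 0.39). The 6 leukocyte markers summed to 6.35 to 8.75 scaled CPM. The part of these marker differences in the values below was not tested. In bulk RNA, fewer expressing cells and less RNA per cell cannot be told apart.

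The level of the 10 genes spanned about 2 orders of magnitude within a library. In Ctrl, OSMR (149 TPM) and IL6ST (141 TPM) stood highest, followed by STAT3 (59.0), JAK1 (55.6), SOCS2 (54.5), SOCS3 (24.3), JAK2 (15.3), IL6R (5.09), LIFR (3.28) and SOCS1 (2.17). The counting intervals of JAK1 and SOCS2 overlapped, as did those of LIFR and SOCS1, so those neighbours were not ordered. The shared chain and the oncostatin M chain were thus abundant, while the chains that bind interleukin-6 and leukaemia inhibitory factor were scarce. In RT the order was IL6ST (176 TPM), OSMR (169), STAT3 (44.1), JAK1 (37.8), SOCS3 (36.1), SOCS2 (32.8), JAK2 (11.2), IL6R (5.63), SOCS1 (1.96) and LIFR (1.71). JAK1 overlapped with SOCS3, SOCS3 with SOCS2, and SOCS1 with LIFR. In RT + shHDAC6, IL6ST (181 TPM) and OSMR (138) were followed by SOCS3 (49.0), STAT3 (46.0) and JAK1 (44.7), which overlapped as neighbours. SOCS2 (40.7), JAK2 (13.9), IL6R (4.33), LIFR (1.87) and SOCS1 (1.27) came below them, the last 2 overlapping. These levels divide by the union of all annotated exons. With the longest transcript instead, STAT3 was at 96.5, 74.2 and 77.0 TPM and SOCS3 at 18.0, 27.4 and 37.0, below SOCS2 (69.8, 43.2 and 53.2) in every library, so the order of STAT3, JAK1, SOCS2 and SOCS3 among themselves depends on the length used, whereas the 2 highest and the 3 lowest genes were the same by both lengths.

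**Figure D1:**
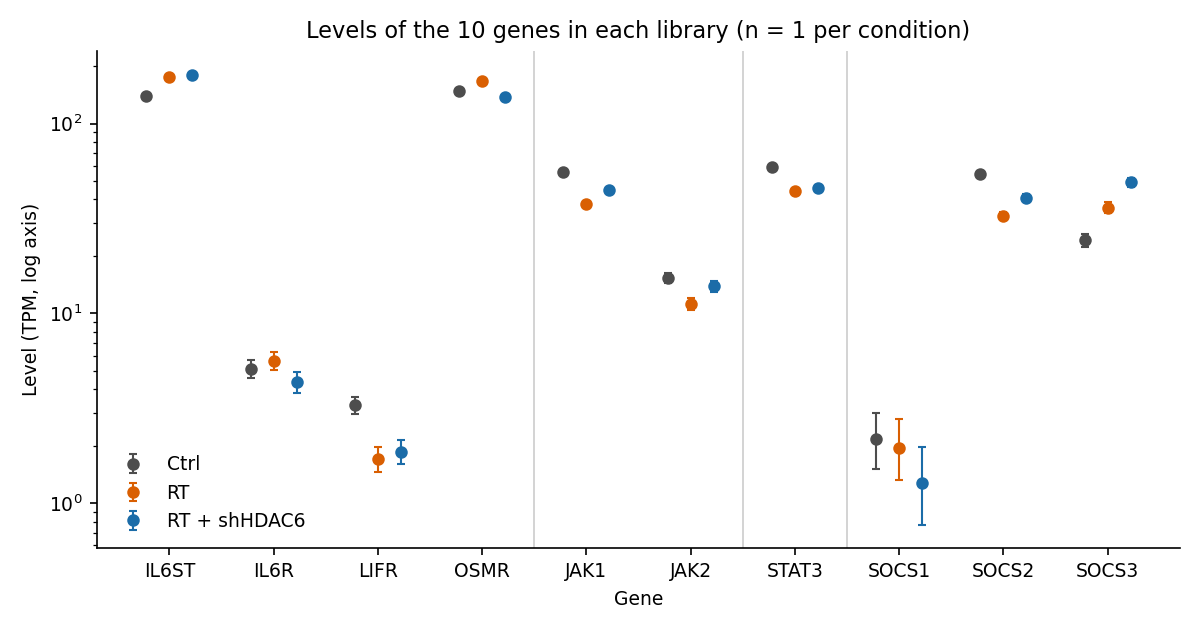
Level of each gene in TPM (y axis, log scale) in Ctrl (grey), RT (orange) and RT + shHDAC6 (blue), with 95% Poisson intervals of the single library; vertical lines part receptors, kinases, STAT3 and SOCS genes. IL6ST and OSMR lie above 100 TPM in every library, IL6R, LIFR and SOCS1 below 6 TPM, and SOCS3 goes from 24.3 to 49.0 TPM. TPM is not on the TMM scale, so differences between libraries are read from the log2 ratios and not from this figure.

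Irradiated cells differed from Ctrl in 3 of the 10 genes under the rule used. IL6ST and SOCS3 were higher and LIFR was lower. Over all genes with a count in either library, 7.8% were called higher and 8.31% lower in this comparison, and over genes that reached 100 counts in either library, as 9 of the 10 did, 15.7% and 10.1%. The 2 of 10 called higher and the 1 of 10 called lower lie near these shares. The median log2 ratio of the 10 genes was 0.04, between 5 values above and 5 below 0, against -0.14 over all genes with a count and 0.05 over those with 100 counts or more. With the library totals as the only scaling, every log2 ratio of RT to Ctrl was 0.22 lower, the median of the 10 genes was -0.18, and the share of higher genes among all calls went from 48.4% to 22.5%.

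None of the 10 genes was called in RT + shHDAC6 compared with RT. Of all genes, 3.3% were called higher and 4.2% lower, and of genes with at least 100 counts 3.0% and 5.29%. The absence of a call among the 10 lies near these shares. The NOISeq procedure that the study names, with its probability over 0.4, marked 6 of the 10 here and 8 of the 10 in RT compared with Ctrl, but it also marked 30.2% and 41.2% of all genes. The median log2 ratio of the 10 genes was -0.0032, against -0.02 over all genes. With library totals alone, the share of higher genes among all calls went from 44.02% to 55.3%. RT + shHDAC6 compared with Ctrl gave calls for IL6ST and SOCS3, higher, and LIFR, lower. In that comparison 7.25% of all genes were called higher and 8.79% lower, and library totals moved the share of higher calls from 45.2% to 29.5%. These 3 comparisons share libraries, so their values are not independent of each other.

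**Figure D2:**
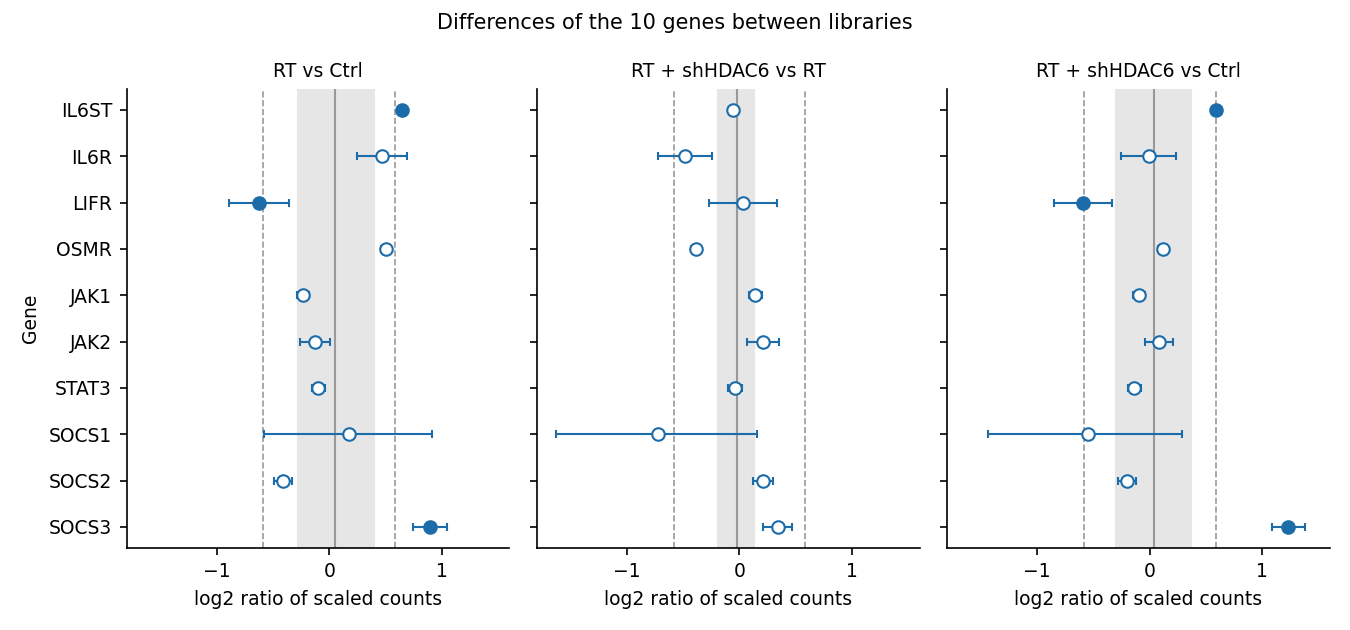
Log2 ratio of TMM-scaled counts (x axis) of each gene (y axis) in the 3 comparisons, with 95% Clopper-Pearson intervals. Filled points were called, dashed lines mark 1.5-fold, and the grey band and line are the middle 50% and the median of genes with at least 100 counts; IL6ST, SOCS3 and LIFR are filled against Ctrl and no point is filled against RT.

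The 3 called genes are shown with the sequence upstream of their annotated starts, since these are the members that met the call rule against Ctrl with TMM scaling. RefSeq windows from 250 bases before to 50 bases after a start (GRCh38.p14) were found for 9 of the 10 genes, 17 windows in all, and not for SOCS2. The letters TTCNNNGAA, the palindrome that STAT proteins bind, were looked for on both strands, together with TGANTCA (AP-1), GGGCGG (the GC box), TATAAA and TGACGTCA (the cyclic AMP element). TTCNNNGAA was present in 7.66% of 35116 windows of all genes and in 2 of the 17, both of LIFR. GGGCGG was in 45.0% of all windows and in 7 of the 17, TGANTCA in 7.71% and in 2, TATAAA in 11.5% and in 1, and TGACGTCA in 1.85% and in none. No motif searched is contained in another. A match is only a match of letters, and none of these sites was measured here. In the lines below, each 5′ to 3′ on the minus strand, bases within exons of the gene are left out. Capitals mark TTCNNNGAA in the LIFR windows and GGGCGG or its reverse complement in IL6ST. Neither of the 2 SOCS3 windows (chr17:78359618-78359917 and chr17:78360876-78361175) held any of the 5 motifs. Neither covers the bases directly before the 5′ end of the gene at 78360077, which were not searched. The same holds for the LIFR windows and the 5′ end of that gene at 38608354. Of the 3 LIFR windows, the one not shown held GGGCGG or its complement 4 times and no TTCNNNGAA, and of the SOCS3 windows the one before the gene is shown.
IL6ST, chr5:55995023-55995213, before the gene: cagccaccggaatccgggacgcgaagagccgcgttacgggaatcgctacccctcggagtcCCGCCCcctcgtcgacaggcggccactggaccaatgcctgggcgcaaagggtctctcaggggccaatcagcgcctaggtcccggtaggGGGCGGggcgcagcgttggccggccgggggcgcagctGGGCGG
LIFR, chr5:38595406-38595655, within an intron of the longer transcripts: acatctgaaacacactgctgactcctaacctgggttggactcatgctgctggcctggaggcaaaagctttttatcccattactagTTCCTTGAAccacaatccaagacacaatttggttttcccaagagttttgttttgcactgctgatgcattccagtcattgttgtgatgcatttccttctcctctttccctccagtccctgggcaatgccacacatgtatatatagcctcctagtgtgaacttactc
LIFR, chr5:38557468-38557717, also intronic: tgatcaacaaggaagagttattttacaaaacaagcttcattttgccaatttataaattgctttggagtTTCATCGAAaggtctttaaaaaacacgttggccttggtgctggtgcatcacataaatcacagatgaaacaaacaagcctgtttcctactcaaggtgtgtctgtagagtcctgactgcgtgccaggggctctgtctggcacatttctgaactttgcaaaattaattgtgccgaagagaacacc
SOCS3, chr17:78360926-78361175, before the gene: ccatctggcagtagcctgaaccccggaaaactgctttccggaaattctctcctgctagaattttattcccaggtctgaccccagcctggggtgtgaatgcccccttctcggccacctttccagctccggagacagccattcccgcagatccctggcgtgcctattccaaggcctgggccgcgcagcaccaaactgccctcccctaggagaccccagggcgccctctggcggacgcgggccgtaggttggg
Counted from the annotated start, with the base before it as -1, the match in the upper LIFR line began at -165 and that in the lower at -182. In the stretch shown, IL6ST held GGGCGG or its complement at -190, -102 and -65.

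Among the receptors, IL6ST (ENSG00000134352.19; GRCh38 chr5:55935095-55995022, minus strand) encodes gp130, the chain that most cytokines of the family share. Its counts were 15725 (Ctrl), 18241 (RT) and 18273 (RT + shHDAC6), and counts are given in that order from here on. RT was 1.57-fold higher than Ctrl (log2 ratio 0.65, interval 0.62 to 0.68), above 86.8% of genes with at least 100 counts. RT + shHDAC6 lay 1.505-fold above Ctrl (0.59, 0.56 to 0.62) and at 96.0% of RT (-0.06, -0.09 to -0.03; 0.02 with library totals). Both irradiated libraries were therefore high and close to each other. The values lie just past the rule, and with library totals they were 0.43 and 0.46 and no longer called; with upper quartile factors the second was 0.56 and not called either. Exons of IL6ST share 6.61% of their bases with a gene on the other strand.

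LIFR (ENSG00000113594.9; chr5:38474668-38608354, minus strand) encodes the chain that binds leukaemia inhibitory factor and also joins the receptors for ciliary neurotrophic factor and cardiotrophin. Its counts were 370, 178 and 190. RT stood at 65.0% of Ctrl (-0.62, -0.89 to -0.36), and 8.85% of genes with at least 100 counts had a lower ratio. RT + shHDAC6 was at 66.5% of Ctrl (-0.59, -0.85 to -0.33) and did not differ from RT beyond counting error (0.03, -0.27 to 0.34). LIFR was thus low in both irradiated libraries. With median-of-ratios size factors the values against Ctrl were -0.56 and -0.54, short of the rule. LIFR-AS1 on the other strand shares 5.17% of its exon bases, and the strand setting of the counting is not given in the sources used here.

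OSMR (ENSG00000145623.12; chr5:38845858-38945596, plus strand) encodes the chain that pairs with gp130 for oncostatin M and with IL31RA for interleukin-31. Its counts were 9891, 10376 and 8276. RT was 1.42-fold higher than Ctrl (0.50, 0.46 to 0.54), and RT + shHDAC6 was at 76.4% of RT (-0.39, -0.43 to -0.35), where 11.0% of genes with at least 100 counts had a lower ratio. Neither value reached 1.5-fold. RT was the highest of the 3 libraries, and RT + shHDAC6 lay near Ctrl (0.12, 0.07 to 0.16; -0.02 with library totals).

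IL6R (ENSG00000160712.12; chr1:154405193-154469450, plus strand) encodes the chain that binds interleukin-6. It had 330, 338 and 253 counts. RT lay above Ctrl (0.47, 0.25 to 0.69) and RT + shHDAC6 below RT (-0.48, -0.72 to -0.24), at 71.7% of it, with 7.80% of genes with at least 100 counts lower still. Again neither passed 1.5-fold, and RT + shHDAC6 and Ctrl did not differ beyond counting error (-0.01, -0.25 to 0.23). OSMR and IL6R were highest in RT after scaling, with log2 ratios of RT + shHDAC6 to RT of -0.39 and -0.48. For IL6ST this ratio was -0.06, and 0.02 with library totals, so which irradiated library was highest depended on the scaling. LIFR was low in both irradiated libraries.

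Ratios between genes of the same library do not depend on the scaling between libraries, and their change between libraries does not depend on the gene length used. IL6ST exceeded LIFR in TPM 42.8-fold (interval 38.6 to 47.6) in Ctrl, 103-fold (89.1 to 120) in RT and 97.0-fold (84.0 to 112) in RT + shHDAC6. The intervals of both irradiated libraries lay above that of Ctrl and overlapped with each other. The ratio of IL6ST to IL6R was 27.6 (24.8 to 30.9), 31.3 (28.1 to 34.95) and 41.9 (37.0 to 47.6), highest in RT + shHDAC6. IL6ST to OSMR was 0.946, 1.05 and 1.31, so that gp130 mRNA went from just below to above that of OSMR. OSMR to its other partner IL31RA was 8.69, 18.0 and 10.4, highest in RT.

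**Figure D3:**
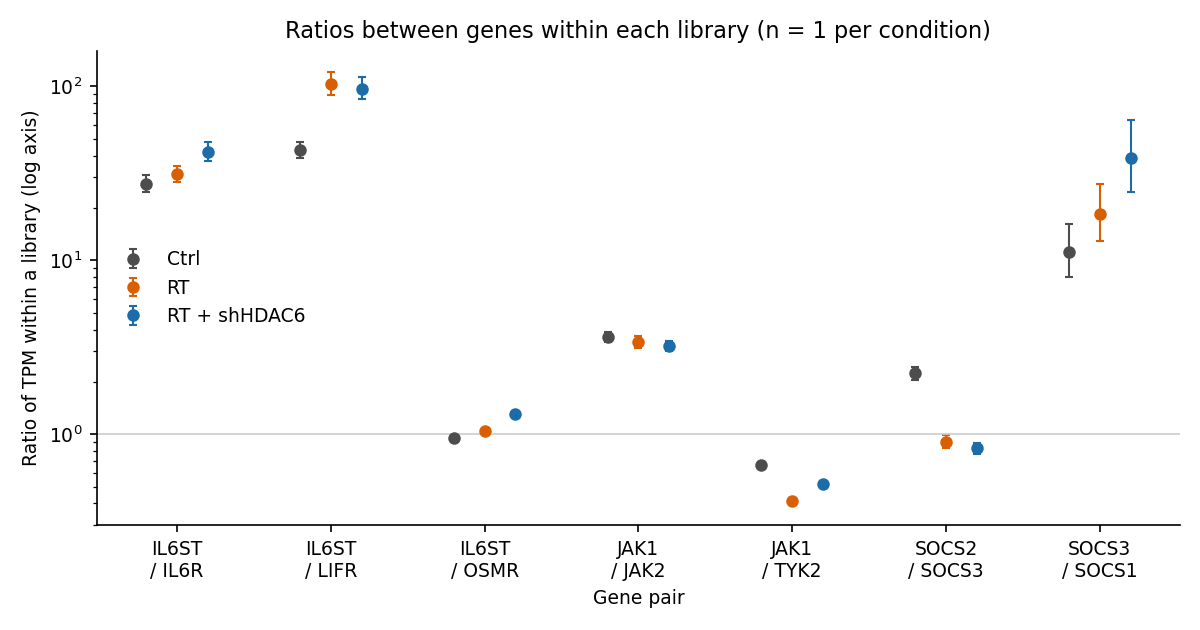
Ratio of the TPM of pairs of genes within a library (y axis, log scale) in Ctrl (grey), RT (orange) and RT + shHDAC6 (blue), with 95% intervals for counting error. IL6ST to LIFR is 42.8 in Ctrl and 103 and 97.0 in the irradiated libraries, and SOCS2 to SOCS3 goes from 2.24 to 0.908 and 0.830.

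The kinases differed little. JAK1 (ENSG00000162434.11; chr1:64833223-65067754, minus strand), the kinase on which gp130 signalling chiefly depends, had 6790, 4277 and 4923 counts. Its log2 ratio was -0.23 (-0.29 to -0.18) in RT compared with Ctrl and 0.14 (0.08 to 0.20) in RT + shHDAC6 compared with RT. It was highest in Ctrl and lowest in RT, by much less than 1.5-fold. A same-strand transcript, LINC01359, shares 4.91% of its exon bases. JAK2 (ENSG00000096968.13; chr9:4984390-5129948, plus strand), which also serves the erythropoietin and growth hormone receptors, had 1125, 761 and 920 counts. Its ratio to Ctrl in RT was -0.13 with an interval that reached 0 (-0.26 to 0.01), and RT + shHDAC6 lay slightly above RT (0.21, 0.07 to 0.35). The ratio of JAK1 to JAK2 in TPM was 3.62, 3.37 and 3.21, with intervals that overlapped between neighbouring libraries. TYK2, the third kinase bound to gp130, had 6600, 6682 and 6140 counts and exceeded JAK1 in TPM in each library, with a ratio of JAK1 to TYK2 of 0.665 (Ctrl), 0.414 (RT) and 0.519 (RT + shHDAC6). JAK1 was thus lowest relative to TYK2 in RT.

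STAT3 (ENSG00000168610.14; chr17:42313324-42388540, minus strand), the transcription factor of the pathway, had 6130, 4241 and 4311 counts. The log2 ratio was -0.10 (-0.15 to -0.04) in RT compared with Ctrl and -0.04 (-0.10 to 0.02) in RT + shHDAC6 compared with RT. Its log2 ratio was near the middle of all genes in both comparisons, where 37.8% and 46.3% of genes with at least 100 counts had a lower ratio. The second value changed sign between scalings, from -0.05 to 0.05.

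Among the feedback genes SOCS3 (ENSG00000184557.4, chr17:78356778-78360077, minus strand) showed the largest difference from Ctrl of the 10, in both irradiated libraries. Its counts were 617, 847 and 1120, although Ctrl was the deepest library. RT was 1.86-fold higher than Ctrl (0.89, 0.74 to 1.04), above 93.7% of genes with at least 100 counts. RT + shHDAC6 was 2.35-fold higher than Ctrl (1.23, 1.09 to 1.38), above 98.3% of them. The step from RT to RT + shHDAC6 was 1.27-fold (0.34, 0.21 to 0.47), above 91.4% of genes and larger than counting error but short of the rule. SOCS3 was called against Ctrl under all 4 scalings, with log2 ratios of 0.67 to 0.95 in RT and 1.10 to 1.28 in RT + shHDAC6.

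SOCS2 (ENSG00000120833.13; chr12:93569814-93583487, plus strand), best known as a brake on growth hormone receptor signalling, went the other way. It had 3273, 1822 and 2201 counts. RT was at 75.3% of Ctrl (-0.41, -0.49 to -0.33), and RT + shHDAC6 lay 1.16-fold above RT (0.21, 0.12 to 0.30). Neither passed the rule with TMM scaling; with library totals RT compared with Ctrl was -0.63 and was called. SOCS2-AS1 on the other strand shares 4.28% of its exon bases. The ratio of SOCS2 to SOCS3 in TPM was 2.24 (2.05 to 2.44) in Ctrl, 0.908 (0.836 to 0.986) in RT and 0.830 (0.772 to 0.892) in RT + shHDAC6. SOCS2 was thus lower relative to SOCS3 in both irradiated libraries than in Ctrl. With the longest transcript the ratio was 3.89, 1.58 and 1.44, above 1 throughout.

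SOCS1 (ENSG00000185338.5; chr16:11254417-11256204, minus strand), a direct inhibitor of JAK kinase activity, was scarce, with 36, 30 and 19 counts. Its log2 ratio was 0.17 (-0.58 to 0.91) in RT compared with Ctrl, -0.05 with library totals, and -0.72 (-1.63 to 0.16) in RT + shHDAC6 compared with RT. Both intervals spanned 0, so no difference was detectable at this depth. SOCS3 to SOCS1 was 11.2 (8.01 to 16.2), 18.5 (12.8 to 27.5) and 38.6 (24.6 to 64.3) in TPM, and only the intervals of Ctrl and RT + shHDAC6 did not overlap.

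**Figure D4:**
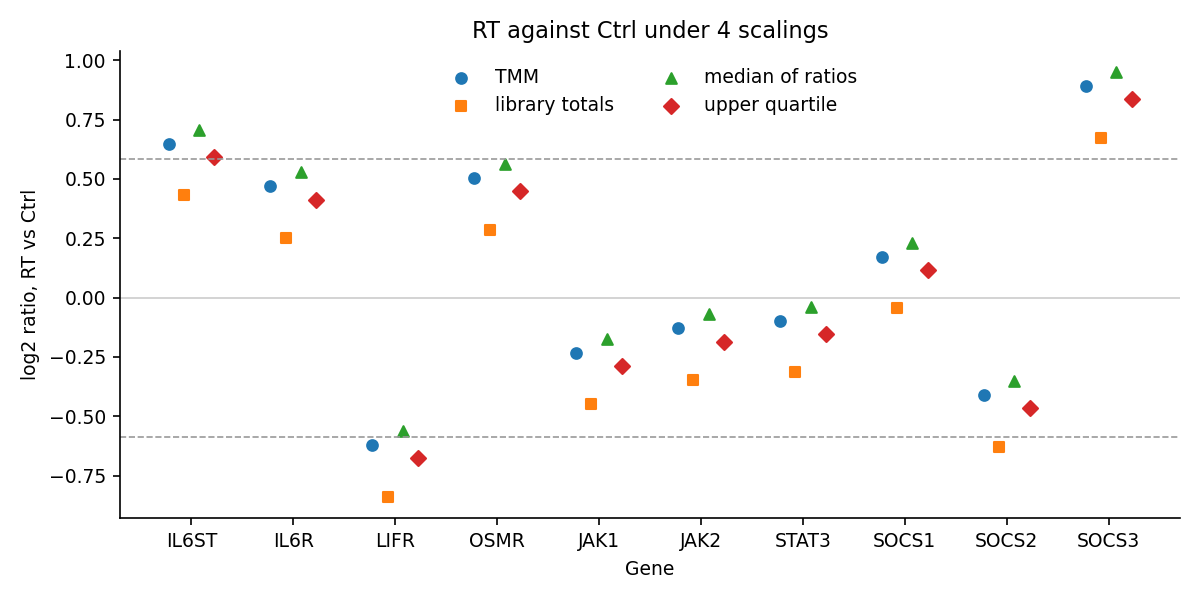
Log2 ratio of RT to Ctrl (y axis) of the 10 genes (x axis) under 4 ways of scaling the libraries, with dashed lines at 1.5-fold. SOCS3 lies past 1.5-fold under all 4, IL6ST under all but library totals, LIFR under all but median of ratios, SOCS2 under library totals only, and SOCS1 crosses 0.

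The ligands that act on these receptors were examined in the same libraries. LIF, which signals through LIFR and gp130, had 4468, 3876 and 4560 counts (124, 117 and 141 TPM), so it was abundant where its own receptor chain was scarce. Its log2 ratio was 0.23 (0.17 to 0.29) in RT compared with Ctrl, but 0.01 with library totals. In RT + shHDAC6 compared with RT it was 0.17 (0.11 to 0.23). CLCF1, a cytokine that acts through the ciliary neurotrophic factor receptor with LIFR and gp130, had 308, 671 and 574 counts. It was called higher in RT than in Ctrl, 2.95-fold (1.56, 1.36 to 1.76), a ratio above that of 99.4% of genes with at least 100 counts. RT + shHDAC6 lay slightly below RT (-0.29, -0.45 to -0.12) and 2.41-fold above Ctrl. The ratio of LIF to CLCF1 in TPM went from 6.88 in Ctrl to 2.74 in RT and 3.77 in RT + shHDAC6.

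The other ligands had under 100 counts in every library. IL6 itself had 10, 12 and 6 counts, and OSM, oncostatin M, had 1, 2 and 1. IL27 had none, which allows up to 3 counts in each library. CNTF had 93, 68 and 55 counts and CTF1, cardiotrophin, 24, 9 and 11, with intervals across 0 in each comparison. IL11 had 28, 10 and 26 counts and was called between RT + shHDAC6 and RT, where the former was higher (1.32, 0.22 to 2.53). EBI3, a subunit of interleukin-27 and interleukin-35, had 2, 11 and 8 counts and was called higher in RT than in Ctrl (2.89, 0.70 to 6.11), with a wide interval.

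Among the other receptor chains of the family, IL27RA, which pairs with gp130 for interleukin-27, had 1357, 3143 and 2490 counts. It was called 3.13-fold higher in RT than in Ctrl (1.65, 1.55 to 1.74), and RT + shHDAC6 was at 75.9% of RT (-0.40, -0.47 to -0.32), with 10.6% of genes at a lower ratio. The gap to the shared chain narrowed in RT, where IL6ST exceeded IL27RA 1.42-fold in TPM, against 2.83-fold in Ctrl and 1.80-fold in RT + shHDAC6. IL31RA, IL11RA and CNTFR were named after their values were seen. IL31RA had 1814, 917 and 1264 counts (-0.55 in RT compared with Ctrl and 0.40 in RT + shHDAC6 compared with RT, neither called). IL11RA had 642, 523 and 491 counts and CNTFR 18, 7 and 9, without a call.

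Receptors outside the gp130 family that also use JAKs were listed for comparison, 15 in all. In RT compared with Ctrl, 4 were called higher and 2 lower. Of all genes 7.8% and 8.31% were, and of genes with at least 100 counts 15.7% and 10.1%. The interleukin-15 receptor chain IL15RA had 249, 448 and 297 counts (1.28 in RT compared with Ctrl, and -0.66 in RT + shHDAC6 compared with RT, both called). IL13RA1, a chain of the interleukin-4 and interleukin-13 receptor, was at 0.85, the interferon gamma receptor IFNGR1 at 0.75 and the interferon alpha receptor IFNAR1 at 0.59. The leptin receptor LEPR had 271, 111 and 177 counts, with calls at -0.85 for RT against Ctrl and at 0.61 for RT + shHDAC6 against RT. The prolactin receptor PRLR was lower in RT (-0.61). IL22RA1, the interleukin-22 receptor chain, had 214, 206 and 76 counts and its log2 ratio of RT + shHDAC6 to RT, which was called, was -1.50 (-1.90 to -1.11). In RT + shHDAC6 compared with RT, 1 of the 15 was thus called higher and 2 lower, against 3.3% and 4.2% of all genes. With library totals IFNGR1 (0.53) and IFNAR1 (0.37) were no longer called, nor was IL15RA against RT (-0.57), IFNAR1 was lost with upper quartile factors too, and with median-of-ratios size factors PRLR (-0.55) was not.

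Of the 8 other JAKs and STATs, 6 reached 100 counts in RT or Ctrl and 5 in RT or RT + shHDAC6, and none of these was called. At that level 15.7% of all genes were called higher and 10.1% lower in the first comparison, and 3.0% and 5.29% in the second. Among the JAKs and STATs with fewer counts, JAK3 (26, 7 and 21 counts) was called in both comparisons, at -1.46 and 1.52. STAT4 (9, 0 and 3 counts) was called lower in RT than in Ctrl. Both were named after their values were seen. Of all genes with a count, 7.8% were called higher and 8.31% lower in the first comparison, and 3.3% and 4.2% in the second. The 14 other negative regulators include further SOCS genes, the PIAS inhibitors of STATs and the phosphatases that act on JAKs. In RT compared with Ctrl, 16.1% of all genes were called. Of genes with at least 100 counts, as 12 of the 14 had, 15.7% were called higher and 10.1% lower. Of the 14, 1 was called. This was SH2B3, an adaptor that restrains JAK2, which had 8794, 3835 and 5583 counts (-0.76, -0.82 to -0.71, in RT compared with Ctrl, and 0.48, not called, in RT + shHDAC6 compared with RT). In the first comparison 10 of the 14 lay below 0, as did 18427 of the 32923 genes with a count in either library. The median of the 14 was -0.24 there, below the -0.14 of all genes, and 0.05 in the second. With at least 100 counts it was again -0.24 over 12 of the 14, against 0.05 over all such genes, and 0.02 against -0.02 in the second. CISH, a SOCS family gene that STAT5 induces, had 71, 49 and 83 counts. It was the 1 gene of the 14 called in the second (0.70, 0.17 to 1.24), where 7.5% of all genes were called. CISH too was named after its values were seen.

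Genes that STAT3 is known to activate were listed as a readout of the factor, 22 in all besides SOCS3. In RT compared with Ctrl, 1 of the 22 was called higher and 5 lower. Of all genes 7.8% and 8.31% were, and with at least 100 counts 15.7% and 10.1%. The median of the list was -0.22 against -0.14 over all genes. Among those with at least 100 counts, 18 of the 22, the median was again -0.22, against 0.05 over all genes at that level. TIMP1, an inhibitor of metalloproteinases, had 3633, 5133 and 3555 counts and was the one called higher (0.93). BCL3, a nuclear cofactor of NF-kappaB, had 708, 220 and 151 counts (-1.25). VEGFA, the angiogenic growth factor, had 4720, 2103 and 1857 counts (-0.73). FOS, a subunit of AP-1, was at -0.70, NNMT, a methyltransferase of nicotinamide, at -0.81 and ICAM1, an adhesion molecule with 76, 31 and 60 counts, at -0.86.

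In RT + shHDAC6 compared with RT, 3 of the 22 were called higher and 2 lower, against 3.3% and 4.2% of all genes. The median was 0.15 against -0.02 over all genes (0.16 and -0.02 with at least 100 counts, 17 of the 22). JUNB, also a subunit of AP-1, had 1045, 708 and 1186 counts (0.68), FOS had 867, 394 and 642 (0.64) and ICAM1 was at 0.89. BCL3 was lower again (-0.61), and TIMP1 was lower (-0.59); with library totals these were -0.52 and -0.51 and not called, nor were they with upper quartile factors. The list therefore held both directions in each comparison. The log2 ratio of SOCS3 in RT compared with Ctrl (0.89) lay above those of all listed targets but TIMP1 and LCN2, the latter with 6, 9 and 3 counts. PIM1, MYC and MCL1, which are also in the list, were not called in either comparison with TMM scaling. In RT compared with Ctrl, PIM1 was called lower with library totals (-0.76) and upper quartile factors (-0.59), and MCL1 with library totals (-0.70). ICAM1, LCN2, PIM1, MYC and MCL1 were named after their values were seen.

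**Figure D5:**
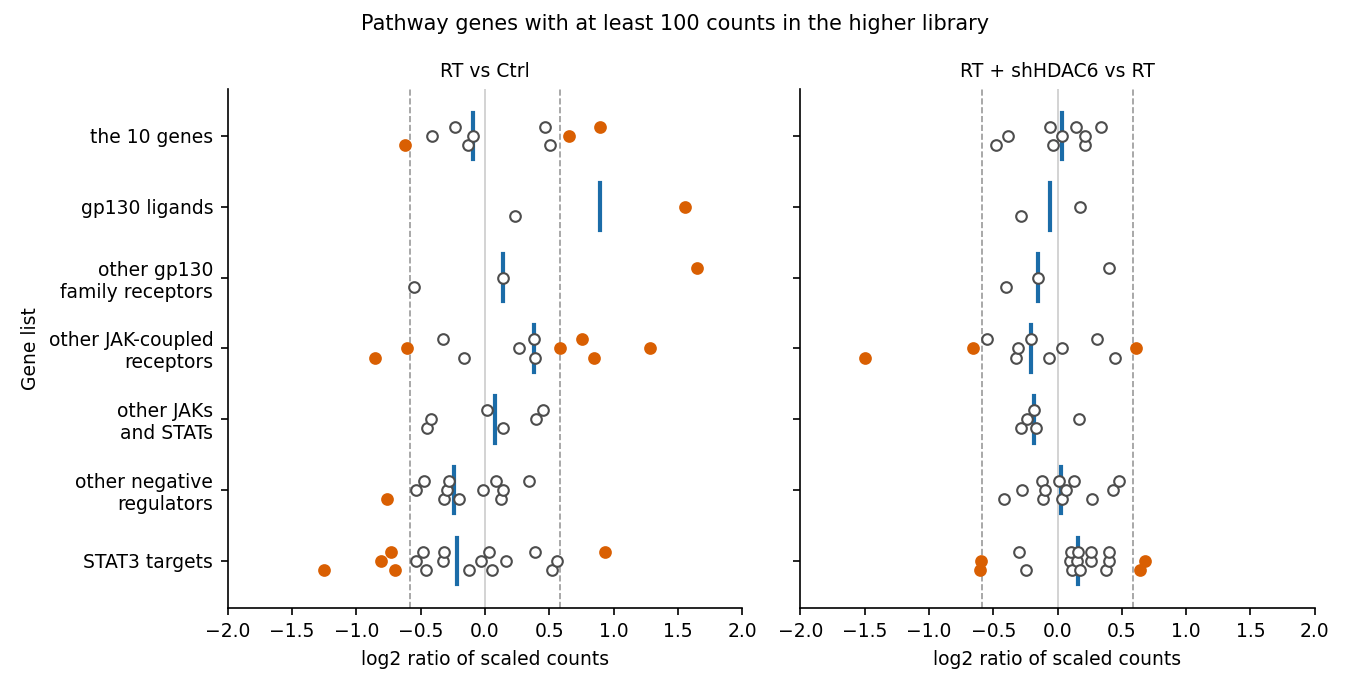
Log2 ratio of TMM-scaled counts (x axis) of the genes of each pathway list on the y axis that reached 100 counts in either library (cell type markers are not plotted), in RT compared with Ctrl and RT + shHDAC6 compared with RT. Orange points were called, open points were not, blue bars are list medians and dashed lines mark 1.5-fold; CLCF1 and IL27RA lie farthest right in the first panel and IL22RA1 farthest left in the second.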

How the data were processed

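RNA-seq read counts of T24 cells were used (Ctrl, RT and RT + shHDAC6, 1 library each). The authors removed adaptors (cutadapt), mapped reads to GRCh38 by STAR (2.6.1a in the submitters' processing notes; the paper's methods name another release) and assigned them by featureCounts to genes of GENCODE release 28; they deposited unnormalised counts per gene. The labels and the methods name different stranded library kits, and the handling of multi-mapped reads is not given in the sources used here. Of 58381 identifiers, 57799 matched GENCODE release 44, which gave symbols, positions and union exon lengths for TPM; every column was used.

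Members and gene lists were chosen with earlier results of these data known. TMM factors came from edgeR 4.0.16 (R 4.3.3) over the 3 libraries. Log2 ratios (0 set to 0.5) have 95% Clopper-Pearson intervals (scipy 1.17.1), TPM Poisson intervals; both cover counting error only, since PCR copies were not marked by molecular identifiers. No test fits 1 library per condition. Named genes are the 10 members, HDAC6, all gp130 ligands and, of each other list and comparison, at most 6 genes called in RT vs Ctrl or RT + shHDAC6 vs RT that reach 100 counts in the library where they are higher. Alternatives were library totals, median-of-ratios (DESeq2 1.42.0) and upper quartile factors, zeros set to 1, a minimum of 10 counts, 1.25-fold and 2-fold rules, no interval condition, transcript length and NOISeq's procedure re-implemented in Python 3.11.15; TMM on pairs of libraries was added after seeing the data. The scripts were tested on simulated counts. Values of 2 listed genes are not reported here.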

Additional observations from a re-analysis of the deposited data

How the results depend on the processing

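Of 120 log2 ratios of the 10 genes recomputed under 4 other scalings, 114 kept their side of the 1.5-fold rule, 5 lost a call, 1 gained one and none that was called changed sign. TMM on pairs of libraries gave the same ratios as the main scaling wherever RT + shHDAC6 was compared. Those repeats are counted among the 114 and add no check. The number of the 10 genes called in RT compared with Ctrl was 0 with a 2-fold rule, 6 with the lower fold rule (named in the methods) and 8 with the NOISeq procedure, against 3. In RT + shHDAC6 compared with RT it was 3 with that lower fold rule, 1 without the condition on the interval (SOCS1, the member with the fewest counts) and 6 with NOISeq, against 0. In RT + shHDAC6 compared with Ctrl it was 1 with 2-fold (SOCS3) and 6 with NOISeq, against 3. The median log2 ratio of the 10 genes was -0.18 with library totals and 0.10 with median-of-ratios factors in RT compared with Ctrl, and 0.081 with library totals in RT + shHDAC6 compared with RT. A lower fold calls more genes by its construction; the cause of the larger NOISeq counts was not tested. Taking the longest transcript in place of the union of exons changed 2 ranks in Ctrl. Leaving out a library was not possible, since each condition has 1, and no paired analysis was possible because the labels give no replicate numbers. Depth limits SOCS1 and the ligands under 100 counts.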
